A study of Mus musculus with 6 samples.

Results

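The natriuretic peptide system of the mouse heart was read here through 8 genes: the peptide genes Nppa and Nppb, the receptor genes Npr1, Npr2 and Npr3, and the protease genes Corin, Furin and Mme. They were taken by name from the 17524 genes of a whole-tissue RNA sequencing table, and all 8 were found. The samples are 6 mouse libraries, 3 of wild-type genotype (controls 35, 36 and 37, after the numbers in their titles) and 3 of TFEB overexpression (TFEB 34, 41 and 43). The overexpression mice are given as R26-LSL-TFEB [+/+]; Acta2-cre: a TFEB cassette at Rosa26 that stays silent until Cre removes a stop signal, with Cre driven by the promoter of Acta2, a gene of smooth muscle and activated fibroblasts. All mice of both groups had the anterior descending branch of the left coronary artery tied, which infarcts the ventricle. The sources used here give neither age, sex nor the time after ligation, nor whether the wild-type mice carried Cre or the cassette.

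Heart muscle makes atrial natriuretic peptide (ANP, from Nppa) and B-type natriuretic peptide (BNP, from Nppb) as precursors and releases the peptides when the wall is stretched. Corin cleaves the ANP precursor at the cell surface and furin cleaves the BNP precursor on its way out of the cell. Both peptides act through Npr1, a receptor whose inner part makes cyclic GMP, which relaxes vessels and promotes loss of salt. Npr2 is the related receptor for C-type natriuretic peptide, Npr3 binds all 3 peptides and clears them, and neprilysin (Mme) degrades them. Atrial muscle holds most Nppa of the healthy adult heart, and ventricular muscle switches both peptide genes on under load or after infarction.

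Nppa and Nppb lie next to each other on mouse chromosome 4 (mm10), and their 250 bases before a RefSeq start (GRCm38.p6, the same build) are shown because these were the most variable members. The start is base 148000722 for Nppa and base 147985900 for Nppb, whose RefSeq locus begins further upstream, so part of its window lies inside the locus. Capitals mark the matches, on either strand, of 5 short motifs: GATAA, the core bound by GATA factors; AAGTG, the core bound by Nkx2-5; CATTCC, the M-CAT element of TEAD factors; the TATA box TATAAA; and CACGTG, the E-box that TFEB can bind.

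Nppa, chr4:148000472-148000721, plus strand: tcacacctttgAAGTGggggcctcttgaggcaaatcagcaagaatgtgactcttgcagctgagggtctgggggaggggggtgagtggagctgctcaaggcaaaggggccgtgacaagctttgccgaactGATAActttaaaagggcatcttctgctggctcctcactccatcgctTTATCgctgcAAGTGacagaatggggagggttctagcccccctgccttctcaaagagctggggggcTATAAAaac

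Nppb, chr4:147985650-147985899, plus strand: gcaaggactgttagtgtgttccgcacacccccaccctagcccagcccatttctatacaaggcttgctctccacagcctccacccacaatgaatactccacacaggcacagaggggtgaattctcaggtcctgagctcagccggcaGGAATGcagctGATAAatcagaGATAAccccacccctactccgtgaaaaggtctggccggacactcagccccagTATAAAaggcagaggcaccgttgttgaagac

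Counting the base before the start as -1, GATAA or its reverse stood at -121 to -117 and -75 to -71 before Nppa, and at -94 to -90 and -83 to -79 before Nppb. AAGTG stood at -239 to -235 and -65 to -61 before Nppa, CATTCC in reverse at -105 to -100 before Nppb, and TATAAA at -9 to -4 before Nppa and -31 to -26 before Nppb. No match overlapped another in these 2 windows. The members have 11 RefSeq start windows, some of which overlap. GATAA was in 2 of the 11 and CACGTG in 0. Of 32851 windows of the same length for all genes, 22.6% held GATAA, 40.7% AAGTG, 12.6% CATTCC, 12.4% TATAAA and 6.02% CACGTG. These matches describe letters only.

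On mm10, by RefSeq, Nppa lies at chr4:148000722-148002074 and Nppb at chr4:147985786-147987205, with 13516 bases between them. The receptor genes lie at chr3:90450591-90465928 (Npr1), chr4:43629015-43651437 (Npr2) and chr15:11839896-11907837 (Npr3). The protease genes lie at chr5:72299948-72504540 (Corin), chr7:80389194-80405441 (Furin) and chr3:63295211-63383713 (Mme). Values are sums over all transcript models of a gene, from 1 for Nppa to 8 for Furin.

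The libraries held 12942480 to 14969287 estimated counts each. Muscle genes dominated them: Myh6, the adult myosin heavy chain, ran from 23129 to 49163 CPM (counts scaled by library total and TMM factor), while Pdgfra, a fibroblast receptor, ran from 71.1 to 117 CPM, so the label that describes the material as primary fibroblasts was not borne out by the transcripts. Tfeb measured 34.4, 33.8 and 41.4 CPM across controls 35, 36 and 37, against 45.4, 45.3 and 39.4 CPM across TFEB 34, 41 and 43, with a log2 fold change of 0.25 (SE 0.12, edgeR adjusted p = 1.00). Its groups overlapped, and whether cassette transcripts are counted under Tfeb is not stated there. Control 35 stood apart in atrial muscle genes. The atrial myosin light chain gene Myl7 measured 1507, 0.421 and 134 CPM across controls 35, 36 and 37, against 0.127, 7.69 and 37.7 CPM across TFEB 34, 41 and 43. Sarcolipin (Sln), an inhibitor of the calcium pump of atrial muscle, measured 632, 0 and 48.4 CPM across the controls, against 0, 1.54 and 14.9 CPM across the TFEB libraries. A count of 0 allows up to 3 counts, or 0.211 CPM in control 36 and 0.191 CPM in TFEB 34, for counting error only. Main results that rest on control 35 are given with and without it.

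None of the 8 members was called between the groups by edgeR's quasi-likelihood test at an adjusted p under 0.05, where 0% of the 13565 genes tested were called. DESeq2 called 1 gene, Ddit4, and no member. All 8 passed the filter on low counts. At an unadjusted p under 0.05 there was 1 member, Npr1, against 1.21% of all genes (164 genes), or 0.833% counting only genes lower in TFEB overexpression. The values of the groups did not overlap for 1 of 8 members, again Npr1, against 4.75% of all genes, or 2.51% in that direction. The fold change was below 0 for 7 members and above 0 for Nppb, with a median log2 fold change of -0.33, beside 0.0030 over all genes tested. Without control 35 it was below 0 for 5 members and above 0 for 3, with a median of -0.039. The labels do not say whether each library is its own animal, so the p-values speak of the spread between these samples only, which may be technical. In whole tissue, fewer cells of a type and less RNA per cell cannot be told apart.

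**Figure D1:**
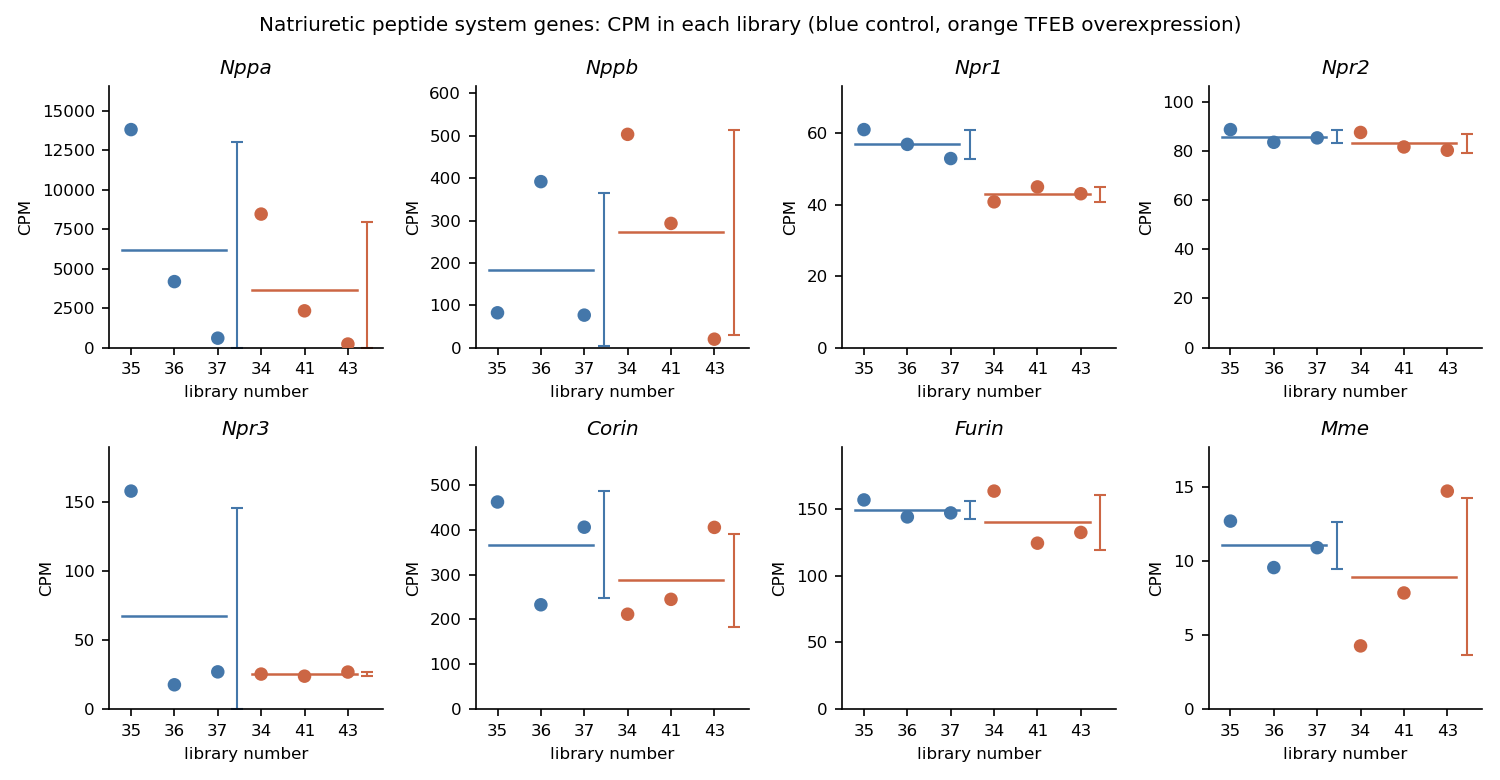
CPM of each member (vertical axes, each from 0) in each library (horizontal axes, library number), with control in blue and TFEB overexpression in orange; horizontal lines are group means and bars are 1 SD over 3 libraries, stopped at 0. Npr1 ran from 52.9 to 61.0 CPM in the controls and from 40.8 to 45.0 CPM in the TFEB libraries, while the groups overlapped for the other 7 genes.

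The peptide gene Nppa spanned 61.6-fold between libraries, far more than the distance between the groups. Nppa measured 13805, 4178 and 597 CPM across controls 35, 36 and 37, against 8454, 2328 and 224 CPM across TFEB 34, 41 and 43. High and low libraries occurred in both groups, and control 35 and TFEB 34 were the highest. The control mean was 6193 ± 6831 CPM and the TFEB mean 3669 ± 4276 CPM (SD, n = 3 each). This gave a log2 fold change of -0.76 (SE 1.39, edgeR adjusted p = 1.00), and the 95% interval of the ratio of 0.592 reached from 0.0578 to 6.07. Leaving out control 35 turned the log2 fold change to 0.62, and leaving out TFEB 34 took it to -2.28.

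On TPM, which is scaled for transcript length, Nppa was the most abundant of all genes in control 35 (38429 TPM) and in TFEB 34 (25578 TPM). It ranked 5 in control 36, 12 in TFEB 41, 87 in control 37 and 249 in TFEB 43, where it stood at 579 TPM. Its share of all estimated counts ran from 0.0210% in TFEB 43 to 1.4% in control 35. The SD of log2 CPM over the 6 libraries was 2.28, at percentile 99.8 of all genes tested, whose median SD was 0.21.

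Nppb spanned 25.4-fold, in a different order of libraries. Nppb measured 82.1, 392 and 76.6 CPM across controls 35, 36 and 37, against 503, 293 and 19.8 CPM across TFEB 34, 41 and 43. TFEB 34 and control 36 were highest and TFEB 43 lowest, so TFEB overexpression held both extremes. The control mean was 184 ± 180 CPM and the TFEB mean 272 ± 243 CPM (SD, n = 3 each), with a log2 fold change of 0.57 (SE 1.11, edgeR adjusted p = 1.00). The ratio of 1.48 had 95% limits of 0.231 and 9.51. The log2 fold change turned to -0.23 without TFEB 34, moved to 1.78 without control 36 and to 1.12 without TFEB 43, and was 0.22 and 0.20 without controls 35 and 37. The SD of log2 CPM was 1.79, at percentile 99.4. Of the 3 transcript models of Nppb, NM_008726 took 90.5% to 94.5% of its counts in every library. The gene values are sums over the models, so these shares do not bear on the spread.

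The peptide genes kept a similar proportion in all libraries but control 35. Per TPM, Nppa exceeded Nppb 7.39-fold in control 36, 5.45-fold in control 37, 11.6-fold in TFEB 34, 5.56-fold in TFEB 41 and 7.84-fold in TFEB 43, and 119-fold in control 35. Control 35 thus had the most Nppa of any library, with Nppb near the level of control 37. The log2 ratio of Nppb to Nppa differed between the groups by 1.08 (exact permutation test, two-sided, p = 0.9, where the smallest p of this design is 0.1), and by -0.33 without control 35. Across the 6 libraries the log2 CPM of Nppa and Nppb had Pearson r = 0.68 (exact permutation p = 0.149) and Spearman rho = 0.66 (exact permutation p = 0.175). Over the 28 pairs of members the adjusted values were 0.594 and 0.613. Without the libraries farthest from the median of Nppa, control 37 and TFEB 43, r was -0.53. Without control 35, a choice made after seeing the data, the other 5 libraries had the same order in both genes and r was 0.98. The pooled r thus depends on which libraries are kept.

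**Figure D2:**
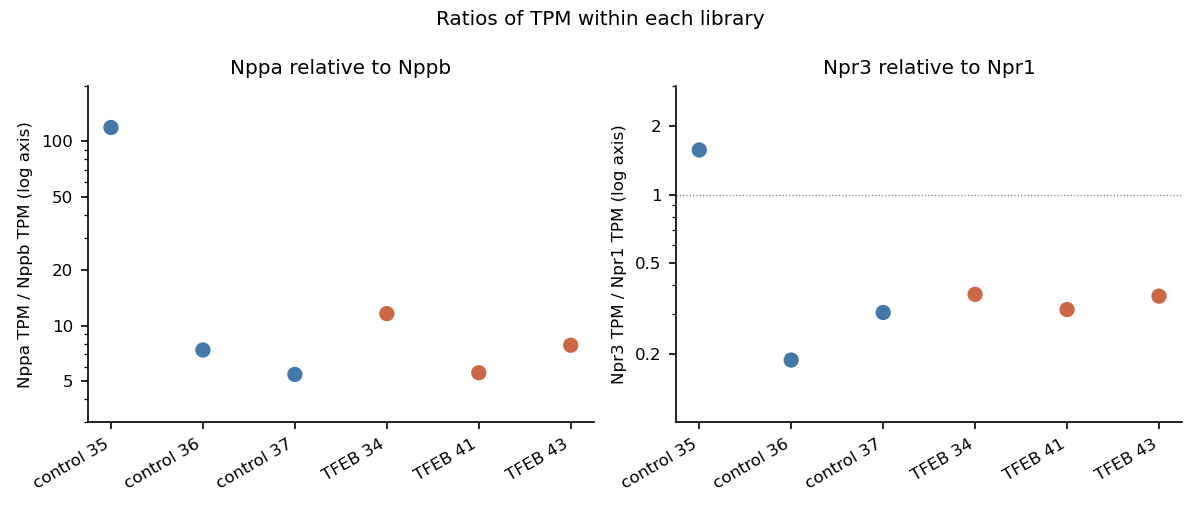
TPM of Nppa divided by TPM of Nppb (left, log axis) and TPM of Npr3 divided by TPM of Npr1 (right, log axis, dotted line at 1) in each library, with control in blue and TFEB overexpression in orange. Control 35 stands above all others in both, at 119 on the left and 1.57 on the right.

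Marker lists also differed between libraries, some in the order of the peptide genes and some not, and their part in these results was not tested. List levels are log2 CPM averaged over the tested genes and set relative to the 6-library mean. The atrial muscle list (11 of 12 genes tested, Bmp10 too low) stood at 3.62, -2.07 and 1.08 in controls 35, 36 and 37 and at -1.86, -0.94 and 0.17 in TFEB 34, 41 and 43. Its summed TPM ran from 116 to 18498 in control and from 155 to 549 in TFEB overexpression. Nppa stood at 8454 CPM in TFEB 34, where Sln had 0 counts and Myl7 stood at 0.127 CPM. In TFEB 34 the high Nppa thus came with Sln and Myl7 at or near 0, and in control 35 with both at their highest. Of the other genes of the list, Mybphl (0.127 CPM) and Myl4 (3.37 CPM) were also low in TFEB 34. Kcnj3 (43.4 CPM) and Tbx5 (18.6 CPM) were at their lowest there too, though not near 0. Dkk3 (119 CPM) and Gja5 (29.0 CPM), among others, were higher there than in every library but control 35. Outside control 35 the atrial list was lowest in control 36 and TFEB 34, where both peptide genes were highest.

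The list of 14 fetal and stress genes of heart muscle, such as Myh7, Acta1 and Ankrd1, stood at 1.03 in TFEB 34, 0.80 in control 36, 0.36 in TFEB 41, -0.47 in control 35, -0.60 in control 37 and -1.12 in TFEB 43. The 17 matrix and myofibroblast genes stood at 1.92, 1.15, 0.79, -0.05, -1.56 and -2.25 in the same libraries. Nppb followed exactly this order, and Nppa did so too apart from control 35. None of the genes of either list was called, and the fold change was above 0 for 12 of the 14 and all 17. The genes within each list varied largely together between libraries, so these counts are not separate observations. TFEB overexpression held both the highest and the lowest level of each list, in TFEB 34 and TFEB 43. Summed TPM ran from 5456 to 13504 in control and from 4511 to 17799 in TFEB overexpression for the fetal and stress list. For the matrix list it ran from 1613 to 7795 and from 1135 to 13617. Postn, a matrix protein gene of activated fibroblasts, measured 489, 1722 and 181 CPM across the controls, against 3366, 1255 and 87.6 CPM across the TFEB libraries. The macrophage and monocyte list (12 of 13 genes tested) had the same order too, at 0.63 in TFEB 34, 0.32 in control 36, 0.13 in TFEB 41, 0.01 in control 35, -0.50 in control 37 and -0.60 in TFEB 43. Its summed TPM ran from 776 to 1643 in control and from 651 to 2423 in TFEB overexpression. The cardiomyocyte list ran the other way at its ends, from -0.46 in TFEB 34 to 0.40 in TFEB 43.

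**Figure D3:**
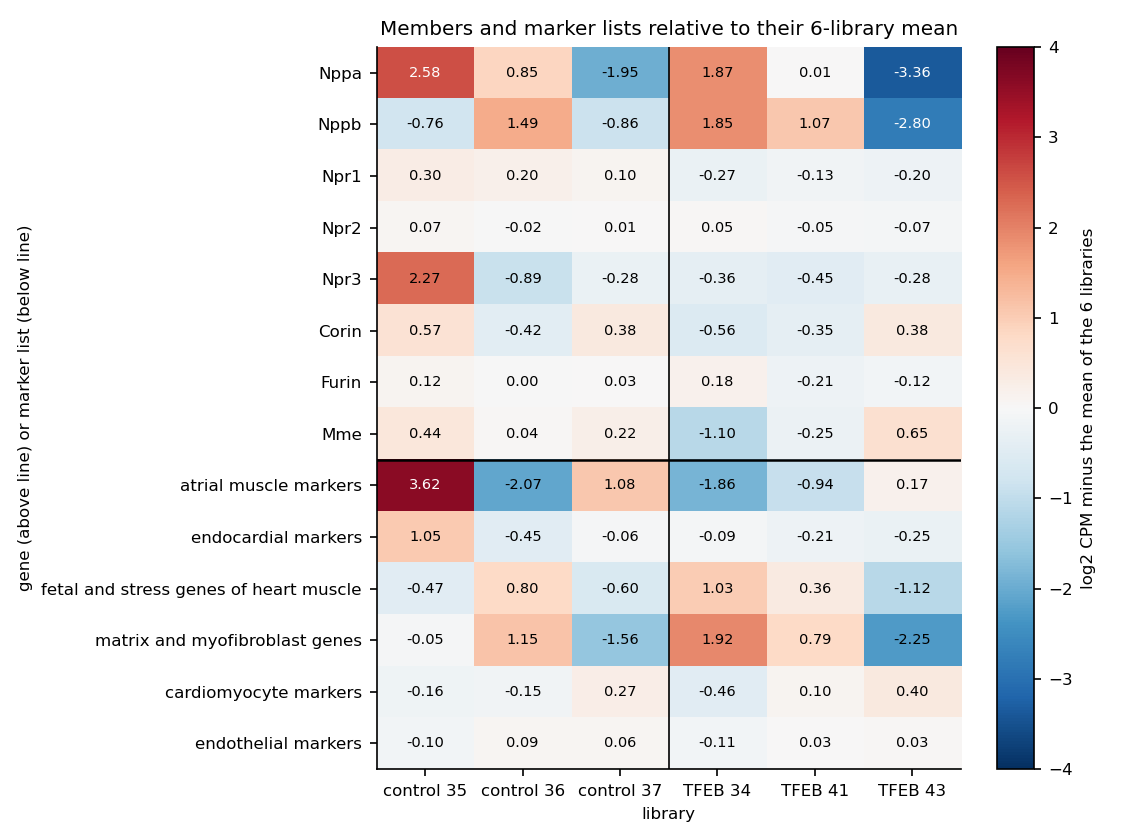
Log2 CPM relative to the 6-library mean (colour and printed value) for the 8 members (above the black line) and 6 marker lists (below it, mean over tested genes) in each library (columns, control left of the vertical line). Nppb follows the fetal and matrix lists, from 1.85 in TFEB 34 to -2.80 in TFEB 43, and Npr3 stands out in control 35 at 2.27 with the atrial list at 3.62.

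Npr1, the guanylyl cyclase receptor of ANP and BNP, was the member whose groups separated. Npr1 measured 61.0, 56.9 and 52.9 CPM across controls 35, 36 and 37, against 40.8, 45.0 and 43.1 CPM across TFEB 34, 41 and 43. Every TFEB library was below every control. Group means were 56.9 ± 4.05 CPM and 42.9 ± 2.09 CPM (SD, n = 3 each), with a log2 fold change of -0.41 (SE 0.09). The ratio of 0.754 had 95% limits of 0.647 and 0.879. Its p of 0.00372 ranked 6 among 13565 genes in edgeR and gave an adjusted p of 1.00, so the gene was not called. The gene was known from earlier results of these data, and this separation is not independent evidence.

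The estimate for Npr1 moved little with the processing. Over 16 alternatives, including each library left out, its log2 fold change ran from -0.46 to -0.35 and was below 0 in all 16, with adjusted p from 0.792 to 1.00 by edgeR, DESeq2 or limma. Since its groups did not overlap, leaving out 1 library could hardly change the sign. The other alternatives reuse the same 6 libraries, so the constant sign adds nothing to the separation. Its SD of log2 CPM over the 6 libraries was 0.24, at percentile 55.3, so it was an ordinary gene in total spread. Model NM_008727 took 98.4% or more of its counts. Npr1 is expressed by endothelium among other cells. The endothelial gene Pecam1 measured 281, 262 and 266 CPM across the controls, against 253, 239 and 236 CPM across the TFEB libraries, also without overlap, with a log2 fold change of -0.15 (SE 0.10, edgeR adjusted p = 1.00). The endothelial list as a whole overlapped, with levels from -0.10 to 0.09 in control and from -0.11 to 0.03 in TFEB overexpression, and 1 of its 14 genes did not overlap. Fat cells express Npr1 and Npr3 too, and the list of adipocyte genes also separated the groups: its 5 tested genes, none called and 4 without overlap, stood at levels of 1.31, 2.94 and 0.10 in the controls, and of -3.12, -0.57 and -0.66 in the TFEB libraries. The adipokine gene Adipoq measured 11.1, 29.5 and 2.1 CPM across the controls, against 0, 1.61 and 0.826 CPM across the TFEB libraries. Acta2, the smooth muscle actin gene whose promoter drives Cre, named after its values were seen, ran the other way: it measured 106, 100 and 137 CPM across the controls, against 214, 291 and 174 CPM across the TFEB libraries (log2 fold change 0.98, SE 0.22, edgeR adjusted p = 1.00). The list of 13 smooth muscle and pericyte genes overlapped between the groups, with levels from -0.22 to -0.02 in control and from -0.23 to 0.31 in TFEB overexpression. The part of endothelial, fat or smooth muscle cell content in the Npr1 values was not tested.

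Npr2, the receptor of C-type natriuretic peptide, was the steadiest member. Npr2 measured 88.7, 83.5 and 85.3 CPM across controls 35, 36 and 37, against 87.6, 81.6 and 80.3 CPM across TFEB 34, 41 and 43. The SD of log2 CPM was 0.056, at percentile 2.44 of all genes tested. For Npr2 the fold change on the log2 scale was -0.05 (SE 0.08, edgeR adjusted p = 1.00), and the 95% interval of the ratio ran from 0.844 to 1.11, which leaves room for changes of that size. Npr2 overlaps the neighbouring gene Spag8 by 108 bases, and no source used here gives the counting strand. Nppc, which encodes the C-type peptide, had at most 1 estimated count in any library and was not detectable at this depth, nor was osteocrin (Ostn), another ligand of Npr3.

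Npr3, the clearance receptor, was high in 1 library. Npr3 measured 158, 17.6 and 27.0 CPM across controls 35, 36 and 37, against 25.4, 23.9 and 26.9 CPM across TFEB 34, 41 and 43. Control 35 was 8.97-fold above control 36, and the other 5 libraries lay between 17.6 and 27.0 CPM. For Npr3 the fold change on the log2 scale was -1.41 (SE 0.80, edgeR adjusted p = 1.00), from a control mean of 67.6 ± 78.5 CPM and a TFEB mean of 25.4 ± 1.49 CPM (SD, n = 3 each). Without control 35 it was 0.19, and by limma-voom over all libraries it was -0.75. Npr3 is a gene of endocardium among other cells, and the endocardial list of 11 genes stood at 1.05 in control 35 and between -0.45 and -0.06 in the other 5. Its summed TPM ran from 128 to 339 in control and from 110 to 178 in TFEB overexpression. Most genes of the list were highest in control 35. Nfatc1 (30.5 CPM there, 35.8 CPM in control 37) and Hapln1 (0.872 and 1.63 CPM) were not. Gja5 stands in both the endocardial and the atrial list, so the lists are not fully separate. Whether atrial or endocardial content accounts for Npr3 in control 35 was not tested.

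Relative to each other, the clearance and signalling receptors stood at an Npr3 to Npr1 ratio of TPM of 1.57, 0.187 and 0.303 in controls 35, 36 and 37, and of 0.364, 0.312 and 0.358 in TFEB 34, 41 and 43. Signalling receptor transcripts were thus the more abundant in every library except control 35. The log2 ratio differed between the groups by -0.38 (exact permutation test, two-sided, p = 1.00). Without control 35 the difference was 0.53, with the TFEB libraries above both remaining controls (exact permutation p = 0.1, the smallest that 2 against 3 libraries allow). The ratio includes Npr1, whose groups already separated, so it is not a separate result. Without control 35 the log2 fold change was -0.35 for Npr1 and 0.19 (SE 0.21) for Npr3.

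The models of Npr3 differed in their share of its counts. XM_030248376 took 33.6%, 49.9% and 42.0% of the counts of Npr3 in controls 35, 36 and 37, and 0%, 24.4% and 0% in TFEB 34, 41 and 43. NM_001039181 took 47.1%, 13.3% and 27.8% in the controls and 51.2%, 37.7% and 44.6% in the TFEB libraries. The first of these was chosen after its values were seen, no test was made, and the gene held only 251 to 399 counts outside control 35. Shares of 0% for a model beside 34.5% for another (XM_006520028 in TFEB 34) show how unevenly the authors' estimates divided reads between models, so these shares are uncertain. Npr3 also overlaps the non-coding gene Gm5144 by 866 bases.

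Corin, the protease that activates ANP, was highest in control 35 and ran against Nppb. Corin measured 462, 233 and 406 CPM across controls 35, 36 and 37, against 212, 245 and 406 CPM across TFEB 34, 41 and 43. Control 36, TFEB 34 and TFEB 41, the libraries with the most Nppb, had the least Corin, and the groups overlapped. For Corin the fold change on the log2 scale was -0.35 (SE 0.34, edgeR adjusted p = 1.00), or -0.15 without control 35, -0.17 without TFEB 34, -0.24 without TFEB 41, -0.59 without control 36 and -0.68 without TFEB 43. Over the 6 libraries Corin and Nppb had Pearson r = -0.87 (exact permutation p = 0.05) and Spearman rho = -0.77 (exact permutation p = 0.103), or 0.28 and 0.48 adjusted over the 28 pairs. Without TFEB 34 and TFEB 43 r was -0.98, and without control 35 it was -0.94. Of the 4 models, NM_016869 took 26.5% to 57.6% and XM_030254695 17.2% to 49.2% of the counts, with no separation of the groups.

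Furin, the convertase that cleaves the BNP precursor, varied little. Furin measured 157, 144 and 147 CPM across controls 35, 36 and 37, against 164, 125 and 133 CPM across TFEB 34, 41 and 43. TFEB 34 was highest and TFEB 41 lowest, so the TFEB values enclosed the controls. For Furin the fold change on the log2 scale was -0.09 (SE 0.13, edgeR adjusted p = 1.00), and the 95% interval of the ratio ran from 0.757 to 1.16. Its main model NM_011046 took 74.8% to 92.6% of the counts, and the gene overlaps the non-coding gene Gm44851 by 1002 bases. Furin and Npr2 had Pearson r = 0.91 (exact permutation p = 0.0208) and Spearman rho = 0.89 (exact permutation p = 0.0333), or 0.243 and 0.408 adjusted over the 28 pairs, and r = 0.97 without control 35 and TFEB 43. No pair of members reached an adjusted p under 0.05, the lowest being 0.243. Of the 28 pairs, 4 had an unadjusted p under 0.05 for Pearson r. They included Corin and Mme (r = 0.82, exact permutation p = 0.0222) and Npr3 and Corin (r = 0.65, exact permutation p = 0.0264), both at 0.243 adjusted.

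Mme, which encodes the peptide-degrading protease neprilysin, was the least abundant member. Mme measured 12.7, 9.55 and 10.9 CPM across controls 35, 36 and 37, against 4.26, 7.84 and 14.7 CPM across TFEB 34, 41 and 43, from 67 to 189 counts. TFEB overexpression held both the lowest and the highest library. For Mme the fold change on the log2 scale was -0.31 (SE 0.43, edgeR adjusted p = 1.00), -0.87 without TFEB 43, 0.027 without TFEB 34, -0.20 without control 35, -0.21 without TFEB 41 and -0.54 by limma-voom. Mme and Nppb had Pearson r = -0.83 (exact permutation p = 0.0347) and Spearman rho = -0.89 (exact permutation p = 0.0333), or 0.243 and 0.408 adjusted over the 28 pairs, and r = -0.79 without TFEB 34 and TFEB 43.

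**Figure D4:**
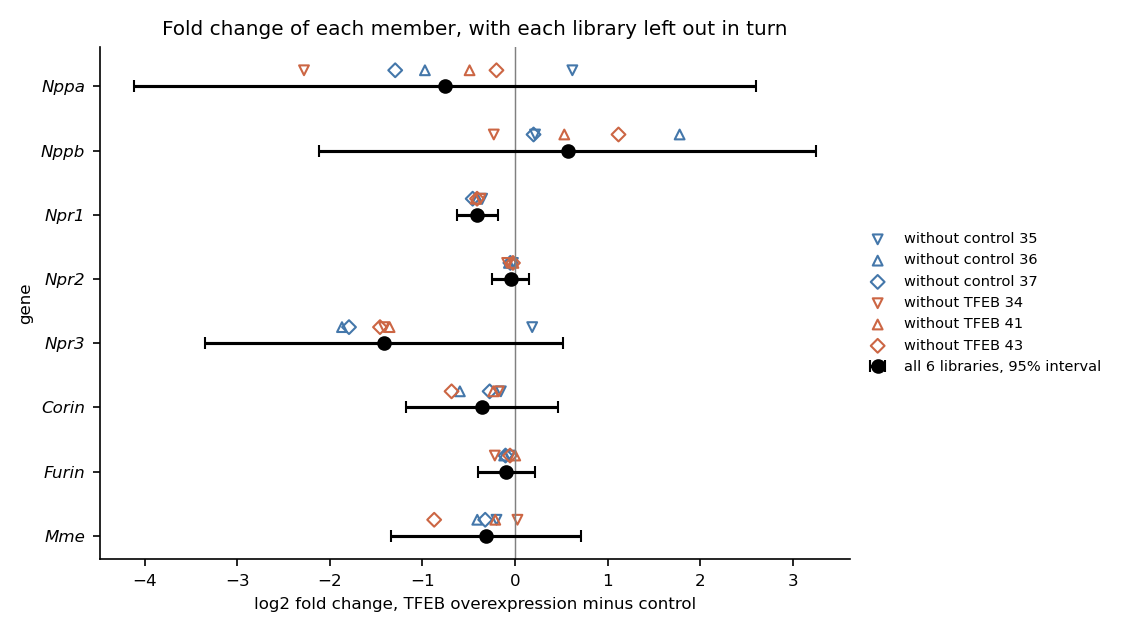
Log2 fold change of each member, TFEB overexpression minus control (horizontal axis), with all 6 libraries (black, with 95% interval) and with each library left out in turn (open symbols). Npr1, whose groups do not overlap, stays between -0.46 and -0.35 when any 1 library is left out. Nppa, Nppb and Npr3 take either sign, and Furin and Mme also reach just above 0.

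By mean TPM over the 6 libraries the order of the members was Nppa (14154), Nppb (952), Corin (118), Furin (58.8), Npr2 (40.9), Npr1 (21.7), Npr3 (12.1) and Mme (2.87). The ranges of Nppa and Nppb overlapped across libraries, as did those of Nppb and Corin (from 83.4 to 169 TPM) and of Npr1 and Npr3 (from 4.87 to 41.6 TPM). The other neighbours in this order did not overlap: the lowest Corin lay above the highest Furin (72.3 TPM), the lowest Furin (49.3 TPM) above the highest Npr2 (46.7 TPM), the lowest Npr2 (34.9 TPM) above the highest Npr1 (26.5 TPM), and the lowest Npr3 above the highest Mme (3.90 TPM). Npr2 transcripts, of the receptor for C-type peptide, were therefore more abundant than those of Npr1 in every library.

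Of 90 further genes of the pathway in 5 lists, 72 were tested. None was called by edgeR in either direction, 0 had an unadjusted p under 0.05 and DESeq2 called none of them, while the fold change was above 0 for 38 and below 0 for 34 (median on the log2 scale 0.0055). The 11 tested processing enzymes had 8 higher and 3 lower values. Among them Pam, which amidates peptides and sits in the membrane of atrial granules, measured 6102, 1139 and 1178 CPM across controls 35, 36 and 37, against 1393, 1011 and 885 CPM across TFEB 34, 41 and 43, so control 35 was again far above the rest. Its log2 fold change was -1.36 (SE 0.70), or -0.08 without control 35. The peptidase gene Dpp4 stood at -0.70 (SE 0.42, or -0.44 without control 35), and the endothelin-converting enzyme genes Ece2 at 0.69 (SE 0.64) and Ece1 at -0.16 (SE 0.18).

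The 21 tested genes of cyclic GMP synthesis and action had 11 higher and 10 lower values (median 0.0042), and the 12 tested phosphodiesterases and exporters 6 and 6 (median -0.0052). Those with the smallest p were Ppp1r12a and Mrvi1, both at an unadjusted edgeR p of 0.125. Ppp1r12a, the myosin phosphatase subunit, had a log2 fold change of -0.15 (SE 0.08) and was lower in all 3 TFEB libraries. It was the 1 gene without overlap among the 72 tested pathway genes, beside 4.75% of all genes. Mrvi1, a target of the cyclic GMP kinase, stood at -0.54 (SE 0.31, or -0.13 without control 35). Vasp, another kinase substrate (0.20, SE 0.15), and the nitric oxide synthase gene Nos2 (0.26, SE 0.21) followed. Among phosphodiesterases those with the smallest p were Pde3b (-0.74, SE 0.37, or -0.49 without control 35), Pde1b (0.43, SE 0.34) and Pde9a (-0.22, SE 0.23). The cyclic nucleotide exporter gene Abcc4 stood at -0.12 (SE 0.14). None of these passed.

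The 28 tested transcription factors that act on natriuretic peptide genes had 13 higher and 15 lower values (median -0.010). Tbx5, a T-box factor of atria and left ventricle, measured 118, 20.1 and 47.9 CPM across controls 35, 36 and 37, against 18.6, 23.1 and 41.6 CPM across TFEB 34, 41 and 43 (log2 fold change -1.16, SE 0.64, or -0.30 without control 35), with control 35 again highest. Klf15, a repressor of hypertrophic genes, stood at -0.43 (SE 0.25, or -0.27 without control 35), Srf at 0.18 (SE 0.11) and Nr2f2, a factor of atrial identity, at -0.47 (SE 0.31, or -0.10 without control 35).

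The genes most like Nppa, Nppb, Npr1 and Npr3 were sought among 11089 other genes averaging 5 CPM or more. Likeness was the Pearson r of log2 CPM over the same 6 libraries, given as a description. Nppa was most like Gm4788, Pdgfc, Ccdc136 and Csgalnact2 (r from 0.993 to 0.999), and 443 genes had r over 0.9. Nppb was most like Cilp, Faf2, Kcnk6 and Lxn (r from 0.990 to 0.995), with 770 genes over 0.9. Pearson r does not measure the size of a change. Csgalnact2 ran only from 40.7 to 50.6 CPM and Faf2 from 27.4 to 35.3 CPM, far smaller spans than those of Nppa and Nppb. Cilp, a matrix protein gene of scar fibroblasts that also stands in the fetal and stress list, measured 66.0, 341 and 65.3 CPM across controls 35, 36 and 37, against 469, 196 and 19.3 CPM across TFEB 34, 41 and 43. Npr1 was most like Cacna1a, Traf3ip2, Ahsa2 and Sik2 (r from 0.959 to 0.992), with 29 genes over 0.9. Npr3 was most like Col23a1, Tbc1d8, Zfp579 and Psd3 (r from 0.990 to 0.995), with 147 over 0.9, and all 4 were highest in control 35. Without control 35 those 4 had r from 0.76 to 0.89 with Npr3, and 11 of the 111 genes then over 0.9 were among the 147. For Nppa, Nppb and Npr1 the counts over 0.9 were then 1852, 1386 and 81, with 393, 765 and 15 of them over 0.9 in all 6 libraries as well. With 6 libraries and so many genes, such values are reached by many genes, as these counts show.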

How the data were processed

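The members and gene lists were chosen with earlier results of these data known. Per the submitters' processing notes, the tools included RSEM 1.3.1 with Bowtie2 2.3.4.3 beside HISAT2 2.1.0, then DESeq2 1.4.5, on build mm10, with no role given. The authors deposited 62498 RefSeq transcripts with estimated counts, TPM and FPKM per library. The estimated counts the authors deposited are not scaled for depth, the TPM the authors deposited are scaled for length and to 1 sum per library, and the FPKM the authors deposited for length and depth. No source used here gives the strand or annotation release.

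Transcripts were summed per Entrez gene and rounded, giving 17524 genes. Symbols, loci and promoter windows came from RefSeq (GRCm38.p6), where 117 genes had no symbol. The groups were compared with edgeR 4.0.16 (filterByExpr, TMM, glmQLFTest, two-sided, R 4.3.3) on all 6 libraries, with Benjamini-Hochberg adjustment over 13565 genes. The test was checked on simulated counts. Log2 CPM used a prior count of 2. The labels name no batch, and groups share no replicate number. Alternatives were RLE and upper-quartile scaling, DESeq2 1.42.0, limma-voom (limma 3.58.1), no filter, at least 10 counts in 3 libraries, limma-trend on log2(TPM + 1), log2(TPM + 0.1) and log2(FPKM + 1), and each library left out. For the ratios of TPM they were FPKM, CPM, TPM + 1 and each library left out. Relations and likeness without control 35, and the median of the members with each library left out, were added after seeing the data. Named were all members, up to 4 genes per pathway list by the smallest p, the 4 genes most like each of 4 members, and a fixed set of markers. Matplotlib 3.10.9 drew the figures.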

Additional observations from a re-analysis of the deposited data

How the results depend on the processing

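Of 128 fold changes of members under the alternatives, 123 kept their direction and none became a call. The 5 that changed sign were those of Nppa (0.62) and Npr3 (0.19) without control 35, Nppb (-0.23) and Mme (0.027) without TFEB 34, and Furin (0.0032) without TFEB 41. With each library left out in turn, the log2 fold change ran from -2.28 to 0.62 for Nppa, -0.23 to 1.78 for Nppb, -1.87 to 0.19 for Npr3, -0.22 to 0.0032 for Furin and -0.87 to 0.027 for Mme. By limma-voom, Nppb stood near 0. On log2(TPM + 1), Nppb stood at 0.10 and Npr3 at -0.73. The count of genes called over all 13565 was 0, and 1 by DESeq2 (Ddit4); the count of members called was 0 throughout. The group difference in the log2 ratio of Nppb to Nppa ran from -0.33 to 1.89, and that of Npr3 to Npr1 from -1.0 to 0.53, with each library left out. Both changed sign without control 35. With 3 libraries a group and such spread, the intervals of Nppa, Nppb and Npr3 leave room for large changes in either direction.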

Other observations

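Bmp10, a growth factor gene of the right atrium named after its values were seen, measured 0, 0 and 2.72 CPM across controls 35, 36 and 37, against 0.0636, 0 and 3.55 CPM across TFEB 34, 41 and 43. The libraries with Bmp10 above 1 CPM, control 37 and TFEB 43, are the lowest in Nppa. Control 35, the highest in Nppa, had no count of Bmp10. The gene did not pass the filter on low counts and was not tested.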
